A study of Mus musculus with 6 samples.

Results

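The genes described here encode the subunits of the proteasome, its activators, its inhibitor and its dedicated assembly factors. Members were found by name, as reference genes whose symbol begins Psma to Psmg followed by a number, with pseudogene names left out. The rule found 50 genes among 47643 reference identifiers. One of them, Psmc3ip, encodes a cofactor of meiotic recombination and is no part of the proteasome, although its name matches. Its values, 10.8, 13.3 and 13.4 FPKM with vehicle and 10.5, 12.2 and 11.7 FPKM with the agonist, overlap between the groups. Of the 50, 48 had an FPKM (fragments per kilobase of transcript, scaled to the depth of the library) of at least 1 in 3 or more libraries and entered the test. The other 2 were Psma8, a core subunit known from testis, and Psmb11, a core subunit known from thymic epithelium. Psma8 stayed at or below 0.0752 FPKM in every library and Psmb11 at or below 0.0189 FPKM.

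The cells were natural regulatory T cells (nTregs) sorted from spleens of C57BL/6 mice that carry the Foxp3-DTR/EGFP allele, which places a diphtheria toxin receptor and a green fluorescent protein under the control of Foxp3. All libraries share that allele and the same culture conditions. The cells were activated for 2 days with antibodies to CD3 and CD28 plus IL-2, then given DMSO vehicle or 100 nM of an EP4 agonist for 6 h and sorted on the fluorescent protein. EP4 is a receptor for prostaglandin E2. There were 3 vehicle and 3 agonist libraries, the sex and age of the mice are not in the labels, and the labels do not say whether libraries of a group came from separate mice or cultures, so the p-values speak only for the variation among these 6 libraries, and that variation may be technical. The comparison asks how the transcripts of nTregs differ once EP4 is stimulated outside the animal.

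The proteasome degrades proteins tagged with ubiquitin. Its core particle is a stack of rings: outer alpha rings that gate the channel and inner beta rings that hold the proteolytic sites. A regulatory particle docks on the core, where its ATPases unfold the substrate and its other subunits bind ubiquitin and remove it. In lymphocytes, catalytic beta subunits called immunoproteasome subunits take the place of the standard ones, and the peptides produced feed antigen presentation on MHC class I. The transcription factor NFE2L1 raises many proteasome genes together when proteolysis falls short, and interferon raises the immunoproteasome genes.

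The libraries rest on 4.32 to 5.65 gigabases of aligned sequence, and 11947 to 12259 reference genes reached an FPKM of 1 in each. Of 7 regulatory T cell markers, all 7 were expressed, with a summed FPKM of 1889 to 2196 with vehicle and 2399 to 2500 with the agonist. The largest differences in mean FPKM among them were in Tnfrsf18 (479 with vehicle, 737 with the agonist) and Ctla4 (242 and 380). Foxp3 (132 and 135) and Il2ra (848 and 850) differed little, so the sum is no measure of the share of regulatory T cells. Markers of B cells (5 genes) summed to 5.64 to 5.93 FPKM with vehicle and 3.69 to 6.20 FPKM with the agonist. The 9 myeloid and dendritic cell markers summed to 2.62 to 4.35 and 4.14 to 5.55 FPKM, with Clec9a and Siglech listed at 0 throughout. The 5 markers of CD8 T and NK cells summed to 5.23 to 6.21 and 5.15 to 7.95 FPKM, and the 5 erythroid and platelet markers to 1.51 to 6.06 and 0.833 to 3.22 FPKM. Agonist replicate 2 had the highest share of FPKM in ribosomal RNA genes, 1.10% against 0.372 to 0.709% in the other 5 libraries, and the highest share in mitochondrially encoded genes, 6.80% against 4.51 to 6.16%. In bulk RNA, fewer cells of a type and less RNA per cell cannot be told apart.

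Promoter sequence is shown first for a selection of members, each with a searched motif. They are the standard catalytic genes Psmb5 and Psmb6, their inducible counterparts Psmb8 and Psmb9, the activator gene Psme3 and the alpha ring gene Psma4. Other members described below, Psma7 and Psmc1 among them, are not shown. The letters are from RefSeq windows on GRCm38.p6, which held 42 of the 50 genes, read 5′ to 3′ on the strand of the gene, with capitals for a matched motif. The Psmb5 stretch lies at chr14:54618023-54618122 (minus strand), Psmb6 at chr11:70525257-70525356 (plus), Psme3 at chr11:101316113-101316212 (plus), Psmb8 at chr17:34198088-34198116 (plus), Psmb9 at chr17:34187460-34187484 (minus) and Psma4 at chr9:54950722-54950750 (plus).
Psmb5: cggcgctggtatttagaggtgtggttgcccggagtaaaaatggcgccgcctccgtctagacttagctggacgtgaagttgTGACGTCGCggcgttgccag
Psmb6: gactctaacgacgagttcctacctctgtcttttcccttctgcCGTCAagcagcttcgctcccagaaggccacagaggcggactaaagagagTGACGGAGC
Psme3: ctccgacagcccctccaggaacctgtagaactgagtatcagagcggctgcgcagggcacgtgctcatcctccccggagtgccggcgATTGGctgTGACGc
Psmb8: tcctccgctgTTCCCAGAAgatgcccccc
Psmb9: gaccctctgtCGTCAcctgtctctg
Psma4: gtgggcagacTGAGCCCGCcccagcactg

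Both strands of the 250 bases before each RefSeq start site were searched. For Psmb8 and Psmb9 that start lies inside the span of the measured gene, so their stretches are not upstream of every annotated start. The antioxidant response element form TGACNNNGC, to which NFE2L1 and NFE2L2 are known to bind, was in 5 of the 42 matched promoters (11.9%), those of Psmb5, Psmb6, Psmc6, Psmd12 and Psmd9, against 11.5% of the promoters of all 27025 genes in the table. Its sister form TGAGNNNGC was in 10 (23.8%, against 16.3% of all genes), Psma4 among them. The short form of the cyclic AMP response element, TGACG, was in 16 (38.1%, against 19.8%), Psmb5, Psmb6, Psmb9 and Psme3 among them. In Psmb5 and Psmb6 it overlaps TGACNNNGC. The full element TGACGTCA was in 0 of 42, against 1.77% of all genes. CCAAT, the box read by NF-Y, was in 15 (35.7%, against 37.5%), Psme3 among them. The interferon-stimulated response element, searched as its paired core, was in 3 (7.14%, against 3.46%), and the gamma-activated site TTCNNNGAA in 2 (4.76%, against 8.13%), one of them Psmb8. The 27025 genes were not limited to the 12186 that entered the test below, so these shares are not matched to the members for expression. A match describes letters and does not show binding.

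Proteasome genes stood slightly lower after 6 h of EP4 agonist, and none passed the test without the replicate number as a block. Over the 48 tested genes the median log2 fold change was -0.14, against -0.03 over all 12186 tested genes. The agonist mean on the log2(FPKM + 1) scale was lower for 46 of the 48, where 57.2% of all tested genes were lower. Psme4 and Psmd10 were the exceptions. Psmd11, whose direction differs between rows of the deposited tables as described below, is among the 46, and without it 45 of 47 were lower at the same median. Psmc3ip, which is no part of the proteasome, is also among the 48 and the 46, with a log2 fold change of -0.11. By limma's moderated test with Benjamini-Hochberg adjustment over all tested genes, 0 of the 48 rose and 0 fell, while 0.345% of all tested genes rose and 0.0492% fell. At an unadjusted p under 0.05 there were 12 of the 48 (25.0%, against 14.0% of all tested genes), but 1 of the 48 with quantile normalization (against 12.5%) and 3 with upper quartile scaling (against 12.6%). Leaving out 1 library gave from 0 of the 48, without agonist replicate 1 (against 1221 of all 12186 tested genes), to 14, without vehicle replicate 1 (29.2%, against 21.2%).

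The summed FPKM of the 50 genes restates the same values without a model, so it is no separate support. The sum is weighted to the most abundant genes and includes the rows of Psmd11 and Psmc3ip. It was 3536, 3776 and 3595 in vehicle replicates 1 to 3, and 3076, 3471 and 3193 in agonist replicates 1 to 3. As a percentage of the summed FPKM of all reference genes, that was 0.821, 0.885 and 0.848% with vehicle and 0.730, 0.796 and 0.772% with the agonist. The groups do not overlap on either measure, and the agonist library is the lower one of each same-numbered pair. How often the sums of other gene sets separate was not examined.

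**Figure D1:**
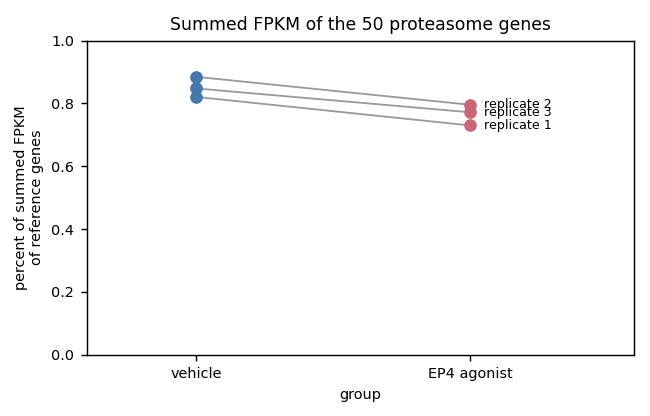
Summed FPKM of the 50 proteasome genes as a percentage of the summed FPKM of all reference genes (vertical axis from 0), by group. Each point is a library and grey lines join libraries with the same replicate number; the 3 agonist libraries lie between 0.730 and 0.796% and the 3 vehicle libraries between 0.821 and 0.885%.

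The agonist libraries differed among themselves. Agonist replicate 2, the library with the highest ribosomal and mitochondrial RNA shares, held the highest agonist value for 37 of the 48 genes, and agonist replicate 1 the lowest for 33. Without agonist replicate 2 the median log2 fold change over the 48 genes was -0.19, and 46 were lower. The part of RNA composition in this was not tested. In the pairs numbered 1, 2 and 3 the median difference over the 48 genes was -0.21, -0.11 and -0.13 on the log2 scale, with 45, 37 and 47 genes lower, where 56.4, 56.5 and 55.4% of all tested genes were lower.

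Of the 48 genes, 15 (31.2%) had all 3 agonist values below all 3 vehicle values, where 12.1% of all tested genes did, and 0 were separated the other way. In all 3 same-numbered pairs 36 of the 48 were lower, where 31.6% of all tested genes were. Without Psmd11 that was 35 of 47. The 36 and the 35 include Psmc3ip. Scaling weakened these counts: with quantile normalization 7 genes were separated (14.6%, against 8.67% of all tested genes) and 24 were lower in all 3 pairs (against 26.3%), and with upper quartile scaling 8 and 26 (against 8.28% and 24.7%). With quantile normalization 42 of the 48 had a lower agonist mean, at a median of -0.09, and with upper quartile scaling 46, at a median of -0.10. Of all tested genes, 51.7 and 48.3% were lower under these scalings, at medians of -0.006 and 0.007, so the background moved too.

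With the replicate number as a block, 6 of the 48 genes fell, 12.5%, where 6.41% of all tested genes fell. None of the 48 rose, where 4.09% of all tested genes did. The 6 were Psma4 and Psma7 of the alpha ring, Psmc1, Psmd3 and Psmd7 of the regulatory particle, and the activator gene Psme3. With the block and quantile normalization together Psme3 alone fell, and over all genes that changed the split from 498 higher and 781 lower to 519 higher and 478 lower. In the fit with the block, leaving out both libraries of replicate 2 or of replicate 3 left 0 of the 48 past limma's test, but also only 0 and 1 of all 12186 genes, so these fits say little about the members. At an unadjusted p under 0.05 they had 20 and 13 of the 48 (41.7 and 27.1%), against 2557 and 2431 of all 12186 tested genes. Leaving out replicate 1 left Psmd11 alone of the 48, with 151 of all tested genes higher and 90 lower.

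**Figure D2:**
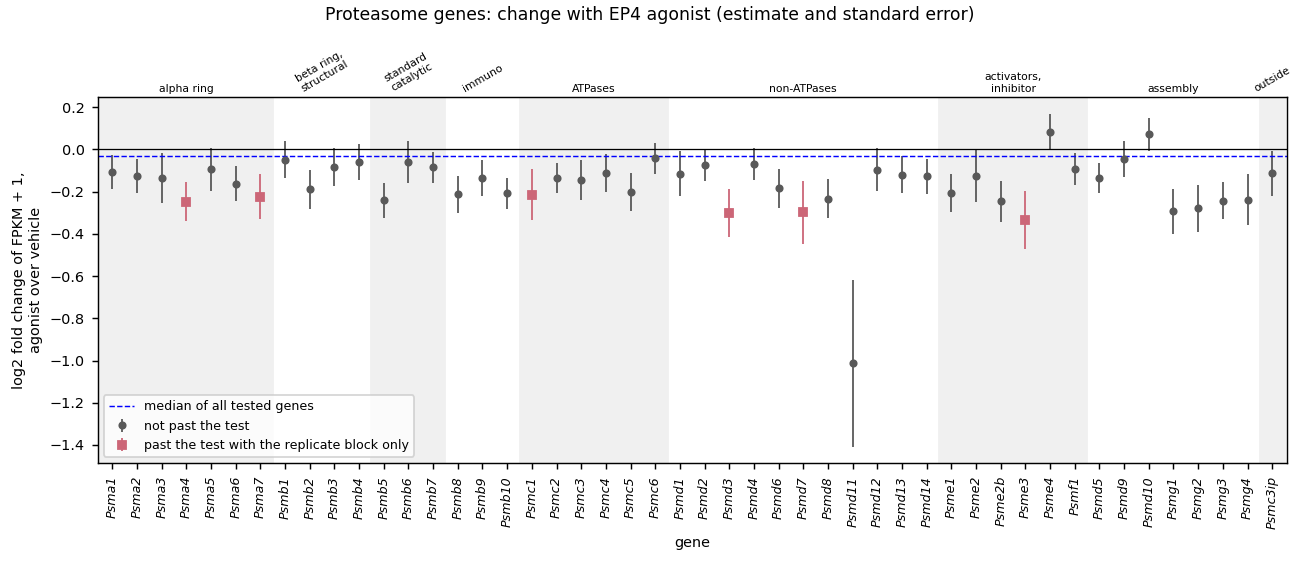
Log2 fold change of FPKM + 1, agonist over vehicle (vertical axis), for the 48 tested genes grouped by role, with the standard error from limma as bars. Nearly all lie below 0 and most below the dashed median of all tested genes at -0.03; squares mark the 6 genes that passed only with the replicate block, and Psmd11 stands far below the rest at -1.01.

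The alpha ring, which gates entry to the core, has 7 genes, and all 7 had a lower agonist mean, with a median log2 fold change of -0.14. Psma4 stood at 103, 116 and 112 FPKM in vehicle replicates 1 to 3 and at 84.7, 98.8 and 95.7 FPKM in agonist replicates 1 to 3. All its agonist values lie below its vehicle values. Its log2 fold change was -0.25 ± 0.09 (SE; limma, adjusted p = 0.304, or 0.0355 with the block).

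Psma7 was the alpha ring gene with the highest vehicle mean, at 155, 183 and 159 FPKM, with 130, 158 and 138 FPKM after the agonist. Each agonist value was lower than its same-numbered vehicle value, while the groups overlap through agonist replicate 2. The log2 fold change was -0.22 ± 0.11 (SE; limma, adjusted p = 0.410, or 0.0448 with the block). Psma5 had the smallest difference of the ring, with 49.5, 52.5 and 46.6 FPKM against 42.8, 52.9 and 43.8 FPKM and a difference of -0.10 on the log2 scale (adjusted p = 0.726). The remaining members, Psma1, Psma2, Psma3 and Psma6, had log2 fold changes from -0.16 to -0.11. Psma6 had agonist values of 85.7, 99.02 and 91.7 FPKM, all below its vehicle values of 101, 102 and 106 FPKM.

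In the beta ring, Psmb1 to Psmb4 encode subunits without a proteolytic site. Their vehicle means lay between 114 and 129 FPKM, a narrower range than the 38.5 to 166 FPKM of the alpha ring. All 4 had a lower agonist mean, but by little, with a median log2 fold change of -0.07, and in none did the groups separate. Psmb2 had the largest difference, from 106, 115 and 121 FPKM to 91.7, 107 and 101 FPKM (log2 fold change -0.19, adjusted p = 0.415). Psmb1 had the smallest, from 141, 124 and 123 FPKM to 122, 131 and 122 FPKM (log2 fold change -0.05, adjusted p = 0.848). Its sign turned with quantile normalization, to 0.01.

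**Figure D3:**
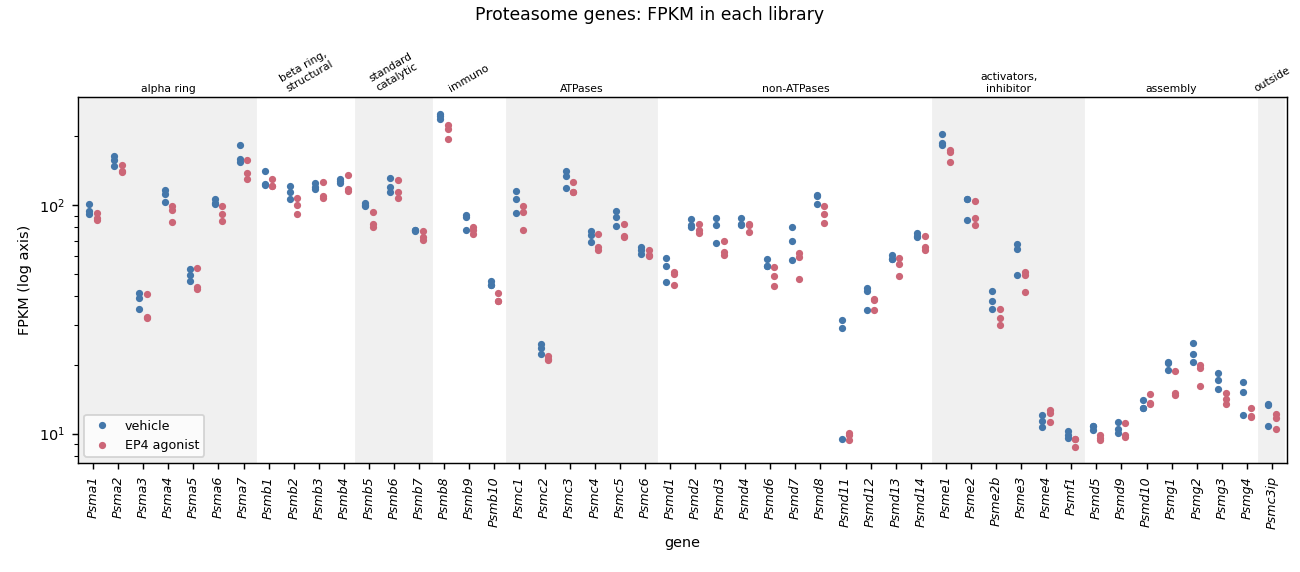
FPKM (log axis) of the 48 tested genes in each of the 6 libraries, grouped by role; each point is a library, blue for vehicle and red for EP4 agonist. The assembly factors lie lowest as a group, Psmb8 highest, and the red points of most genes sit at or just below the blue ones.

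The catalytic genes come in pairs, a standard subunit and the immunoproteasome subunit that can replace it at the same site. At the beta5 site, which cuts after hydrophobic residues, the inducible gene was the more abundant. Psmb8 (beta5i; chromosome 17, 34197721 to 34201454, mm10) stood at 238, 251.2 and 244.9 FPKM with vehicle and at 194, 225 and 215 FPKM with the agonist, the highest vehicle mean of all 50 genes. The agonist values lie below the vehicle values, with a log2 fold change of -0.21 ± 0.09 (SE; limma, adjusted p = 0.341, or 0.0686 with the block).

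The standard beta5 gene Psmb5 (chromosome 14, 54614120 to 54617995) had 102, 99.5 and 100.4 FPKM with vehicle and 82.5, 93.0 and 80.0 FPKM with the agonist. These groups do not overlap either, and the log2 fold change was -0.24 ± 0.08 (adjusted p = 0.280, or 0.0755 with the block). The ratio of Psmb8 to Psmb5 overlapped between the groups, at 2.33, 2.53 and 2.44 with vehicle and 2.35, 2.42 and 2.69 with the agonist.

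At the beta1 site, which cuts after acidic residues in the standard form, the standard gene Psmb6 was the more abundant, with 120, 132 and 114 FPKM against 114, 129 and 108 FPKM after the agonist. The groups overlap and the log2 fold change was -0.06 (adjusted p = 0.840), with its sign turned to 0.01 by quantile normalization. Psmb9 (beta1i; chromosome 17, 34181988 to 34187764) had 88.5, 90.3 and 78.1 FPKM with vehicle and 74.99, 80.6 and 77.6 FPKM with the agonist (log2 fold change -0.14, adjusted p = 0.517). Psmb9 overlaps the start of Tap1, which runs the other way, and without the strand setting of the counting their reads cannot be told apart there. The ratio of Psmb9 to Psmb6 was 0.737, 0.687 and 0.684 with vehicle and 0.655, 0.625 and 0.718 with the agonist.

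At the beta2 site, which cuts after basic residues, Psmb7 had 78.1, 78.2 and 77.1 FPKM with vehicle and 70.3, 77.2 and 72.7 FPKM with the agonist (log2 fold change -0.085, adjusted p = 0.646). Psmb10 (beta2i) had 46.7, 44.6 and 44.9 FPKM with vehicle and 38.2, 41.4 and 38.0 FPKM with the agonist, with no overlap. Its log2 fold change was -0.21 ± 0.07 (SE; adjusted p = 0.280, or 0.0744 with the block). The ratio of Psmb10 to Psmb7 was 0.598, 0.570 and 0.582 with vehicle and 0.543, 0.536 and 0.522 with the agonist, so at this site the ratios do not overlap. At the beta1 and beta5 sites they overlap. How often ratios of other gene pairs separate was not examined.

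Taking the 3 sites as one, immunoproteasome genes held 55.4, 55.5 and 55.8% of catalytic FPKM in the vehicle libraries and 53.5, 53.7 and 55.9% in the agonist libraries, means of 55.6 ± 0.179% and 54.4 ± 1.34% (SD, n = 3 each). Agonist replicate 3 lay above all vehicle libraries. The 3 immunoproteasome genes had a median log2 fold change of -0.21 and the 3 standard catalytic genes one of -0.09. The difference between those medians was not tested, and under quantile normalization they were -0.16 and -0.01.

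**Figure D4:**
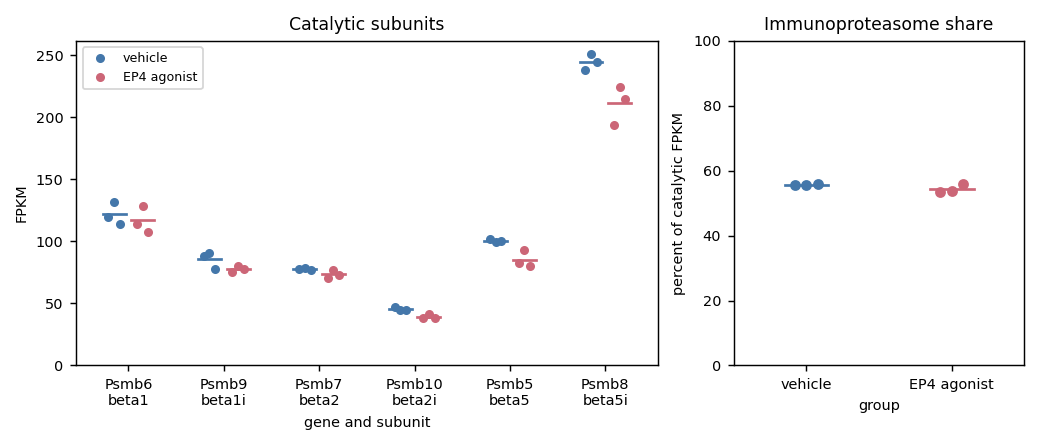
Left, FPKM of the 6 catalytic beta subunit genes by site (points, libraries; bars, means; axis from 0). Right, immunoproteasome genes as a percentage of catalytic FPKM per library; Psmb8 is the highest gene at 194.3 to 251.2 FPKM, and the shares lie between 53.5 and 55.9% in both groups.

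The base of the regulatory particle holds a ring of 6 ATPases. On the deposited values, all 6 genes had a lower agonist value in every same-numbered pair, where 31.6% of all tested genes did. For the ATPases alone that count was not taken under the other scalings. The median log2 fold change of the 6 was -0.14. Psmc1 (Rpt2) had 92.4, 115 and 107 FPKM with vehicle and 78.3, 98.8 and 93.3 FPKM with the agonist. Both libraries numbered 1 are low and the groups overlap. The fold change was -0.22 on the log2 scale (limma, adjusted p = 0.475, against 0.0443 with the block). Psmc6 (Rpt4) differed least, with 61.0, 65.5 and 63.4 FPKM against 59.9, 63.9 and 60.5 FPKM (log2 fold change -0.04, adjusted p = 0.842), and its sign turned with quantile normalization, to 0.03. Psmc3, Psmc4 and Psmc5 had log2 fold changes from -0.20 to -0.11.

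Psmc2 (Rpt1) looked far less abundant than its partners, with 20.96 to 24.8 FPKM where the other ATPase genes had 59.9 to 141 FPKM. The deposited tables also hold loci assembled from each library's own reads, and for Psmc2 the locus on the same strand had 79.7, 79.9 and 76.6 FPKM with vehicle and 73.3, 69.99 and 68.2 FPKM with the agonist, 3.22 to 3.45 times the reference row. On either row the agonist values lie below the vehicle values. For 43 of the 48 tested genes the assembled locus was within 10% of the reference row in all 6 libraries. The exceptions were Psmc2, Psmd11, Psme3, Psme4 and Psmf1.

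Of the 11 non-ATPase genes of the regulatory particle, Psmd11 is treated separately below. The other 10 all had a lower agonist mean, with a median log2 fold change of -0.12. Psmd3 (Rpn3), a scaffold of the lid, had 68.3, 87.9 and 82.2 FPKM with vehicle and 60.3, 69.7 and 62.2 FPKM with the agonist. Only agonist replicate 2 exceeds the lowest vehicle library, and the log2 fold change was -0.30 ± 0.11 (SE; limma, adjusted p = 0.310, or 0.0426 with the block). Psmd7 (Rpn8), the partner of the deubiquitinase of the lid, had 57.8, 80.5 and 70.1 FPKM with vehicle and 47.4, 61.9 and 59.1 FPKM with the agonist. It too is low in both replicates numbered 1, and its log2 fold change was -0.30 ± 0.15 (adjusted p = 0.424, or 0.0312 with the block).

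Psmd14, which encodes the deubiquitinase itself, had 75.6, 72.4 and 73.7 FPKM with vehicle and 63.9, 73.7 and 65.4 FPKM with the agonist, and the groups overlap. The ubiquitin receptor gene Psmd4 differed least, with 88.2, 82.3 and 83.03 FPKM against 82.1, 76.7 and 82.99 FPKM (log2 fold change -0.07, adjusted p = 0.737). Psmd8 and Psmd6 had no overlap between groups: Psmd8 lay between 101 and 111 FPKM with vehicle and between 83.3 and 99.3 FPKM with the agonist, and Psmd6 between 54.1 and 58.2 FPKM and between 44.2 and 53.9 FPKM. Neither passed the test. Psmd1, Psmd2, Psmd12 and Psmd13 had log2 fold changes from -0.12 to -0.08.

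Psmd11 (Rpn6; chromosome 11, 80428615 to 80473248) had the lowest log2 fold change of all members, -1.01 ± 0.40 (SE; limma, adjusted p = 0.325). Its reference row read 9.52, 28.97 and 31.4 FPKM with vehicle and 9.34, 9.83 and 10.1 FPKM with the agonist, so vehicle replicate 1 lay with the agonist libraries. Without vehicle replicate 1 the adjusted p was 0.00373 at a log2 fold change of -1.54, the one setting without the block in which a member passed. The assembled locus with the longest overlap had 40.7, 31.5 and 31.4 FPKM with vehicle and 44.1, 46.7 and 64.3 FPKM with the agonist, the opposite order. That locus differs in extent between libraries. In the libraries whose reference row was low, that locus stood 4.28 to 6.36 times above the row, and in vehicle replicates 2 and 3 within 10% of it. In vehicle replicate 1 and agonist replicates 1 and 2 the gene was covered by 2 separate assembled loci rather than 1. There the value quoted is that of a locus ending at 80445973 or 80445972, which covers only part of the gene. Where the locus spans the whole gene, it had 31.5 and 31.4 FPKM in vehicle replicates 2 and 3 and 64.3 FPKM in agonist replicate 3. The direction for Psmd11 thus depends on which row of the deposited table is read, and no direction is given for it here.

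**Figure D5:**
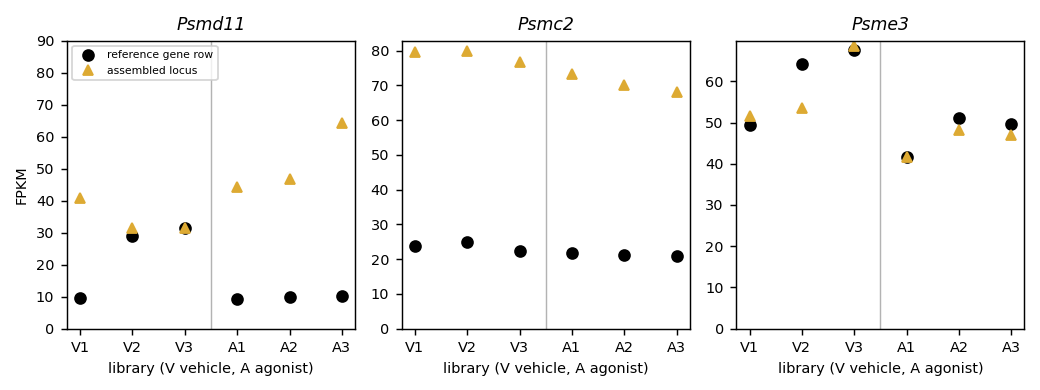
FPKM of the reference gene row (black circles) and of the assembled locus with the longest overlap on the same strand (yellow triangles) for Psmd11, Psmc2 and Psme3 in each library (V1 to V3 vehicle, A1 to A3 agonist; each axis from 0). For Psmd11 the rows part in V1 and in the 3 agonist libraries, for Psmc2 they part by a like factor in all 6, and for Psme3 they mostly coincide. In V1, A1 and A2 the Psmd11 locus shown covers only part of the gene.

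The core can instead be capped by other activators. Psme1 and Psme2 encode the alpha and beta subunits of PA28, an interferon-inducible ring that favours release of peptides. Psme1 stood at 188, 205 and 184 FPKM with vehicle and at 172, 174 and 154 FPKM with the agonist, with no overlap and a log2 fold change of -0.21 ± 0.09 (SE; limma, adjusted p = 0.364, or 0.0674 with the block). Psme2 had 107, 106 and 86.4 FPKM with vehicle and 87.7, 105 and 82.2 FPKM with the agonist (log2 fold change -0.13, adjusted p = 0.705). The row of Psme2b, a close copy of Psme2, had 42.3, 38.1 and 35.2 FPKM with vehicle and 29.9, 35.0 and 32.0 FPKM with the agonist. Reads may be split between Psme2 and Psme2b, so both levels are uncertain.

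Psme3 encodes PA28 gamma, a nuclear activator that works without ubiquitin. Its reference row had 49.5, 64.2 and 67.5 FPKM with vehicle and 41.6, 51.0 and 49.7 FPKM with the agonist, and vehicle replicate 1 lies among the agonist values. The log2 fold change was -0.33 ± 0.14 (SE; limma, adjusted p = 0.347, or 0.0317 with the block), the lowest of the 48 after Psmd11. Its assembled locus had 51.7, 53.5 and 68.5 FPKM with vehicle and 41.7, 48.2 and 46.99 FPKM with the agonist, with no overlap. That locus runs past the end of the annotated gene in all 6 libraries.

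Psme4, which encodes the activator PA200, was one of the exceptions to the general direction. It had 12.01, 10.7 and 11.3 FPKM with vehicle and 12.7, 11.2 and 12.3 FPKM with the agonist. Each agonist value was above its same-numbered vehicle value, but the groups overlap and the log2 fold change of 0.08 did not pass (adjusted p = 0.706). Psmf1, the gene of the inhibitor PI31, had 9.59, 9.85 and 10.2 FPKM with vehicle and 9.47, 8.77 and 9.43 FPKM with the agonist (log2 fold change -0.09), with no overlap on the reference row. In agonist replicate 2 its assembled locus read 16.5 FPKM against 8.77 FPKM on the reference row, where in the other 5 libraries the rows were equal to within 10%.

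Assembly factors hold the immature rings and the base together while the particle is built, and they leave it afterwards. Their 7 genes were the least abundant group, with vehicle means of 10.6 to 22.6 FPKM, and had a median log2 fold change of -0.24, which was -0.14 without vehicle replicate 1. Psmg1 to Psmg4 encode the chaperones of the alpha ring. Psmg1 had 19.01, 20.4 and 20.6 FPKM with vehicle and 14.7, 18.9 and 15.1 FPKM with the agonist, with no overlap and a log2 fold change of -0.29 ± 0.11 (SE; limma, adjusted p = 0.295, or 0.0762 with the block). Psmg2, its partner in the same heterodimer, had 20.6, 24.9 and 22.3 FPKM and 16.1, 19.3 and 20.0 FPKM, also with no overlap. Psmg3 was separated as well, at 15.6 to 18.5 FPKM with vehicle and 13.5 to 15.1 FPKM with the agonist. It shares part of its strand with another expressed gene model. Psmg4 overlapped between groups, with 16.8, 15.3 and 12.1 FPKM against 12.95, 11.9 and 11.8 FPKM.

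Psmd5, Psmd9 and Psmd10 encode chaperones of the ATPase ring. Psmd5 had 10.8, 10.8 and 10.4 FPKM with vehicle and 9.83, 9.59 and 9.39 FPKM with the agonist, with no overlap (log2 fold change -0.14). Psmd9 had a log2 fold change of -0.05. Psmd10, which encodes gankyrin, had 12.95, 12.9 and 13.99 FPKM with vehicle and 14.96, 13.6 and 13.5 FPKM with the agonist, the other gene with a higher agonist mean (log2 fold change 0.07, adjusted p = 0.739). Of the 7 assembly genes, 4 (57.1%) were separated downwards on the deposited values, where 12.1% of all tested genes were. That count was not taken under the other scalings. None of the 7 passed the test with or without the block.

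Outside the name rule, 59 genes that act with the proteasome were followed: its partner proteins, factors that control its genes, the p97 segregase that hands it substrates, ubiquitin and its activation, and peptide loading on MHC class I. Of the 57 tested, 0 rose and 0 fell by limma, with 3 at an unadjusted p under 0.05, a condition met by 14.0% of all tested genes. The block gave 1 that rose and 2 that fell (3.51%), where 4.09% of all tested genes rose and 6.41% fell. The median log2 fold change of the 57 was -0.06, and 43 (75.4%) had a lower agonist mean, against 57.2% of all tested genes. The gene that rose was Stat3, a transcription factor of cytokine signalling, from 49.0, 37.3 and 38.0 FPKM to 66.8, 49.2 and 52.6 FPKM (log2 fold change 0.43, adjusted p = 0.285, or 0.0174 with the block). All its agonist values lie above its vehicle values. With the block, Usp14, a deubiquitinase that sits on the regulatory particle, fell from 22.8, 27.5 and 28.1 FPKM to 19.5, 22.8 and 24.7 FPKM (adjusted p = 0.456, or 0.0481 with the block). Canx, the chaperone calnexin, fell with the block too, from 82.3, 106 and 101 FPKM to 71.3, 88.8 and 83.7 FPKM (adjusted p = 0.444, or 0.0361 with the block).

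The core chaperone Pomp, required for maturation of the beta ring, had overlapping groups. It stood at 52.8, 53.9 and 49.7 FPKM with vehicle and 47.3, 57.6 and 50.3 FPKM with the agonist (log2 fold change -0.015, adjusted p = 0.965, with either sign among the alternatives). Relative to the median of the 14 standard core genes in the same library, Pomp stood at 0.504, 0.466 and 0.439 with vehicle and at 0.532, 0.558 and 0.512 with the agonist, with no overlap. The nearest values, 0.504 and 0.512, lie close together, and how often such ratios separate for other genes was not examined. Nfe2l1, the gene of the factor that raises proteasome genes together, had 19.2, 18.4 and 18.1 FPKM with vehicle and 20.6, 16.9 and 17.5 FPKM with the agonist (log2 fold change -0.025, adjusted p = 0.936, with either sign among the alternatives). NFE2L1 is controlled mainly as a protein, which these libraries do not measure.

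Genes of the interferon response had either sign. Of the 15 tested, 5 had a lower agonist mean and 0 passed by limma, with 2 at an unadjusted p under 0.05 (against 14.0% of all tested genes). The block gave 2 of the 15 that rose and 1 that fell (6.67%), where 4.09% of all tested genes rose and 6.41% fell. Irf7, a factor that amplifies interferon, rose in that fit from 2.92, 3.08 and 2.88 FPKM to 4.55, 4.005 and 4.18 FPKM (adjusted p = 0.158, or 0.0441 with the block). Ifit2 rose from 7.29, 5.87 and 6.94 FPKM to 8.72, 7.40 and 8.80 FPKM (0.334, or 0.0479). The guanylate-binding protein gene Gbp4 fell from 36.2, 28.4 and 26.8 FPKM to 30.1, 23.7 and 22.8 FPKM (0.502, or 0.0360). Irf7 and Ifit2 do not overlap between groups and Gbp4 does. Of the 15, 2 were separated upwards and 1 (6.67%) downwards, where 886 and 1472 of all 12186 tested genes were. The 1 downwards was Igtp, from 165, 171.3 and 153.4 FPKM to 144.4, 150.5 and 135.1 FPKM. It did not pass limma's test (adjusted p = 0.386, or 0.0614 with the block). The median log2 fold change was 0.095, above that of the immunoproteasome genes at -0.21. Irf1, which drives immunoproteasome genes, had 49.7, 51.1 and 42.9 FPKM with vehicle and 49.2, 45.3 and 39.6 FPKM with the agonist (log2 fold change -0.10, adjusted p = 0.734). Tap1, the peptide transporter gene beside Psmb9, had 115, 105 and 102 FPKM and 103, 102 and 98.4 FPKM (log2 fold change -0.085, adjusted p = 0.681). The groups overlap for Irf1 and Tap1.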

How the data were processed

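Expression was measured by RNA sequencing in 3 vehicle and 3 EP4 agonist libraries, whose group and replicate number came from their titles. Reads were trimmed with Trim Galore and aligned with HISAT2 to mm10 (no versions named), per the submitters' processing notes. For the abundance program, gene annotation and strandedness of counting, nothing is stated in the labels read here. The authors deposited FPKM and coverage per gene for each library, per the file headers. A further column headed TPM was not used, since its sum in each library exceeds what that unit allows. Rows of 1 identifier listed in pieces were summed. The commonest ratio of coverage to FPKM gives the aligned bases. Counts were not recovered, so no counting interval is given and precision is the spread between libraries.

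Values entered as log2(FPKM + 1), over the 12186 reference genes that reached 1 FPKM in at least 3 libraries. limma 3.58.1 (trend, robust variances, statmod 1.5.0, R 4.3.3) tested agonist against vehicle, with Benjamini-Hochberg adjustment over all tested genes and a threshold of 0.05. The fit without the block was also tried on simulated data, with planted changes larger than that of any member and no replicate pairing. That trial says nothing about changes as small as those of the members or about the block. A fold change on the log2(FPKM + 1) scale understates that of low genes. Tables were handled in Python 3.11.15 with pandas 2.3.3 and numpy 2.4.6, and plots drawn with matplotlib 3.10.9.

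Deviations from the group means correlated at 0.512, 0.404 and 0.321 for libraries numbered 1, 2 and 3 in both groups, and at -0.353 to 0.002 for other pairs. Each same-numbered pair was above 0.1, so the number was taken to pair libraries. That rests on the data, as the labels do not say what the number stands for. Centring on group means makes positive values in some pairs force negative ones in others, so the contrast between pairs is partly built in. The block was also chosen from the same values that it was then used to test. The fit with this block is given where it changes a call.

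The name rule uses no measured value, but this family and the lists were chosen with earlier results of these data known. Values in every library are given for members past the test with or without the block, the catalytic genes, Psme1 and Psme2, the highest and lowest fold change of each role group, Nfe2l1, Pomp, Irf1 and Tap1. A further gene of this rule is not reported here. Others were added after their values were seen.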

Additional observations from a re-analysis of the deposited data

How the results depend on the processing

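The lower agonist mean of 46 of 48 proteasome genes ranged from 42 to 48 genes over the alternatives (48 of 50 with no filter). The count that fell, 0, became 6 with the replicate block, 1 with the replicate block with quantile normalization, and 0 to 1 when libraries were left out. For the other pathway genes, 1 rose and 2 fell with the replicate block, 1 rose with the replicate block with quantile normalization, and 0 to 1 fell when libraries were left out. Of the genes named, the replicate block changed the calls given in the text and that of the marker Tnfrsf18, which was higher with the agonist. For Tnfrsf18 the adjusted p by limma was 0.216, or 0.0338 with the block.

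Quantile normalization, with or without the replicate block, moved the median log2 fold change of the standard catalytic genes to -0.009, the ATPases to -0.088, the non-ATPases to -0.068, the activators to -0.114 and the structural beta ring to -0.006. Upper quartile scaling moved ATPases, non-ATPases and activators to -0.099, -0.086 and -0.124, standard catalytic genes to -0.043 and the structural beta ring to -0.031, and coverage moved the non-ATPases to -0.108. Leaving out 1 library gave medians from -0.184 to -0.096 for ATPases, -0.198 to -0.088 for non-ATPases (-0.204 with the replicate block, without replicate 2), -0.232 to -0.127 for activators, -0.215 to -0.106 for the alpha ring, -0.145 to -0.037 for the structural beta ring, -0.129 to -0.054 for standard catalytic genes, -0.248 to -0.154 for immunoproteasome genes, -0.272 to -0.142 for assembly factors and -0.191 to -0.112 for all members. Signs turned for genes near 0. Quantile normalization, with or without the block, gave 0.014 for Psmb1, 0.008 for Psmb6, 0.031 for Psmc6, 0.019 for Nfe2l1 and 0.047 for Pomp, and upper quartile scaling 0.015 for Nfe2l1 and 0.027 for Pomp. Leaving out 1 library, Psmb1 ranged from -0.084 to 0.015, Nfe2l1 from -0.109 to 0.029 and Pomp from -0.093 to 0.047. With the replicate block and a pair left out, Psmb1 reached 0.032 without replicate 1, Nfe2l1 0.023 without replicate 2, and Pomp 0.056 without replicate 1. The cause was not tested.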
